A study of Mus musculus with 5 samples.

Results

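The distal convoluted tubule is the short nephron segment between the thick ascending limb and the connecting tubule. RNA of 10 genes that serve salt, magnesium and calcium transport there, or its control by WNK kinases, was examined in kidneys after unilateral ischemia-reperfusion injury (UIRI). The 10 were taken by name, with no threshold on a measured value, out of 35478 genes listed: Slc12a3, Pvalb, Trpm6, Trpv5, Calb1, Wnk1, Wnk4, Klhl3, Kcnj10 and Fxyd2. All 10 were found, and all 10 passed the filter on low counts that left 16394 genes for testing. The study asked how loss of Prdm16, a zinc finger regulator of transcription, in tubular cells alters the kidney transcriptome after UIRI.

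Kidneys of 2 Prdm16fl/fl mice and of 3 Ksp-Cre/Prdm16fl/fl mice were compared, with 1 library for each separate mouse. All 5 were male, 7 to 8 weeks old when used, and carried the floxed Prdm16 alleles. The labels give the strain as C57BL/6J, and the methods give C57BL/6J;129. Every mouse had the vessels of the left kidney clamped for 35 minutes at 38.5°C, lost the right kidney at day 10 and was killed 24 hours later, so that there was no uninjured kidney in the comparison. Ksp-Cre drives Cre recombinase from the promoter of kidney-specific cadherin (Cdh16), which is active along the tubule and not in the distal convoluted tubule alone. By the methods, the tissue was renal cortex and mRNA was selected with oligo(dT). In the order used throughout, values are those of control mice 1 and 3, then of knockout mice 1, 2 and 3, numbered as in the labels. Total counts were 15215871 and 14939040 in the Prdm16fl/fl libraries and 16425161, 16111708 and 15470435 in the Ksp-Cre/Prdm16fl/fl libraries.

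In the distal convoluted tubule, the sodium-chloride cotransporter NCC, the product of Slc12a3 and the target of thiazide diuretics, takes up salt from the lumen. The kinases WNK1 and WNK4 act through the kinases SPAK and OSR1, which phosphorylate and activate NCC, and the adaptor KLHL3 hands WNK kinases to a cullin-3 ubiquitin ligase for degradation. The early part of the segment takes up magnesium through TRPM6 and holds parvalbumin, whereas the late part and the connecting tubule take up calcium through TRPV5 with the help of calbindin. The segment is known to remodel readily, and its cells are rich in mitochondria and in the sodium pump.

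The sequences upstream of 4 of the genes are shown because they are the 3 genes with the lowest fold changes in the Ksp-Cre/Prdm16fl/fl kidneys, Slc12a3, Klhl3 and Pvalb, and Trpv5, the one with a positive fold change. Each run is the 250 bases before the start of the gene, 5′ to 3′ on the strand of the gene, from RefSeq on build GRCm38.p6, with a match to the TATA box letters TATAAA in capitals. Of the 10 genes, 8 matched the promoter table, with 9 promoters. The windows are chr8:94328958-94329207 (plus strand) for Slc12a3, chr13:58113648-58113897 (minus strand) for Klhl3, chr15:78206401-78206650 (minus strand) for the first of 2 listed Pvalb promoters and chr6:41680724-41680973 (minus strand) for Trpv5.
Slc12a3: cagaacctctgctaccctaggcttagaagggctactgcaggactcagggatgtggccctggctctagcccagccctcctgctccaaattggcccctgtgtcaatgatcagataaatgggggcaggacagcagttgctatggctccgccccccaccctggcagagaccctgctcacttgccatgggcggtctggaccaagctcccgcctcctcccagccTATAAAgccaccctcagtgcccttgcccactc
Klhl3: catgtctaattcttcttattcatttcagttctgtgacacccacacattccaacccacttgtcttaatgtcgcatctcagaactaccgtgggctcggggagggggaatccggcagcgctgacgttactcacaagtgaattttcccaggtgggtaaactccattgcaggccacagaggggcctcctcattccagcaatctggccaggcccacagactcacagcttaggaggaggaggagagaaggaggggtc
Pvalb: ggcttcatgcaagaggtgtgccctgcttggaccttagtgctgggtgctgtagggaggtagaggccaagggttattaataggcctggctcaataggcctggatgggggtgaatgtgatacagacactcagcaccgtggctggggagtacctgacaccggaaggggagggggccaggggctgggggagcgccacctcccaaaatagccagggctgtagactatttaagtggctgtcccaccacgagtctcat
Trpv5: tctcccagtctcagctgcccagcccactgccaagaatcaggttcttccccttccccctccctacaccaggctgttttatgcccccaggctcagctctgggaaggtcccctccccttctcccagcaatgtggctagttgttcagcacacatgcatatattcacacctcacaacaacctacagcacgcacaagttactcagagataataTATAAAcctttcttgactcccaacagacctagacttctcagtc
TATAAA was found 32 bases before the start of Slc12a3 and 43 bases before the start of Trpv5, and in none of the other 7 promoters. Among 32851 promoters of the same length, 12.4% held it on either strand. The steroid receptor half-site letters TGTTCT, present in 16.1% of all promoters, were found in Kcnj10 alone, 191 bases before its start. The letters AAGGTCA of a nuclear receptor site (4.08% of all promoters) and GTTAAT of an HNF1 half-site (6.43%) were found in none of the 9 promoters. A match is given as a description of the sequence only.

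The labels and the tissue were checked first. Prdm16, the targeted gene, was at 25.3 and 20.02 normalised counts per 1000000 (CPM) in the Prdm16fl/fl kidneys and at 17.1, 16.95 and 18.0 CPM in the Ksp-Cre/Prdm16fl/fl kidneys. All 3 knockout kidneys lay below both others, by a log2 fold change of -0.38 (standard error, SE, 0.15, adjusted p = 0.259, edgeR), which did not pass the threshold. In TPM, a count per length scaled to a fixed total, the groups overlapped, at 5.86 and 4.21 against 4.64, 4.58 and 4.34. Reads of all exons and all cell types are summed in this count, so that the floxed exon 9 cannot be read alone. Cdh16, whose promoter drives Cre, was at 980 and 944 CPM against 868, 890 and 575 CPM. Of the defining markers of the distal convoluted tubule, Slc12a3 had 2746 counts or more in every library, whereas Pvalb, a marker of the early segment, was at 7 counts in Ksp-Cre/Prdm16fl/fl mouse 2 and at 0 in mouse 3.

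The library of Ksp-Cre/Prdm16fl/fl mouse 3 stood apart from the rest. Across genes, its log2 CPM correlated with the other 4 libraries with Pearson's r between 0.942 and 0.959, whereas r was 0.991 for the other knockout libraries and 0.988 for the controls. These r are across genes and describe the libraries only, as genes are no independent replicates. The fold changes of the 10 genes and the ratios between them are therefore also given without this mouse, whereas the gene lists rest on all 5 libraries. No 2 libraries were duplicates, since even the most alike, those of knockout mice 1 and 2, had a chi-square of counts of 9.89 per degree of freedom.

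Of the 10 genes, 9 were lower in the Ksp-Cre/Prdm16fl/fl kidneys by the sign of the log2 fold change, beside 46% of all genes tested. The median log2 fold change of the 10 was -0.76, whereas the median of all 16394 genes was 0.04. A gene was called changed at a Benjamini-Hochberg adjusted p under 0.05 from edgeR's quasi-likelihood test across all genes. Klhl3 was the only one of the 10 that fell, 1 of 10 beside 0.872% of all genes called lower, and 0 of 10 rose beside 0.104% of all genes called higher. By unadjusted p, 3 of the 10 were under 0.05, beside 18.8% of all genes, and DESeq2 called 2 lower, Klhl3 and Fxyd2, beside 5.33% of all genes. For 6 of the 10, all 3 Ksp-Cre/Prdm16fl/fl libraries lay below both Prdm16fl/fl libraries, a pattern seen in 21.3% of all genes, and for 0 of 10 they lay above both, a pattern seen in 20.3%. The first count depended on the scaling: it was 3 of 10, Klhl3, Fxyd2 and Pvalb, both in TPM (10.4% of all genes) and in counts over library totals (15.2%). The second count was 0 of 10 on both of these scales, beside 39.5% of all genes in TPM and 29.4% in counts over library totals. By the group means 7 of the 10 were lower in TPM, where Trpm6, Wnk4 and Trpv5 were higher. Without Ksp-Cre/Prdm16fl/fl mouse 3, 5 of the 10 were called lower (Slc12a3, Fxyd2, Wnk4, Klhl3 and Pvalb), beside 11.0% of all genes, and Trpv5 was called higher, beside 7.82%. With any one of the other 4 mice left out, 0 of the 10 and 0 of all genes were called, and between 1330 and 2514 genes had an unadjusted p under 0.05. In bulk tissue, fewer cells of a type and less RNA per cell cannot be told apart.

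**Figure D1:**
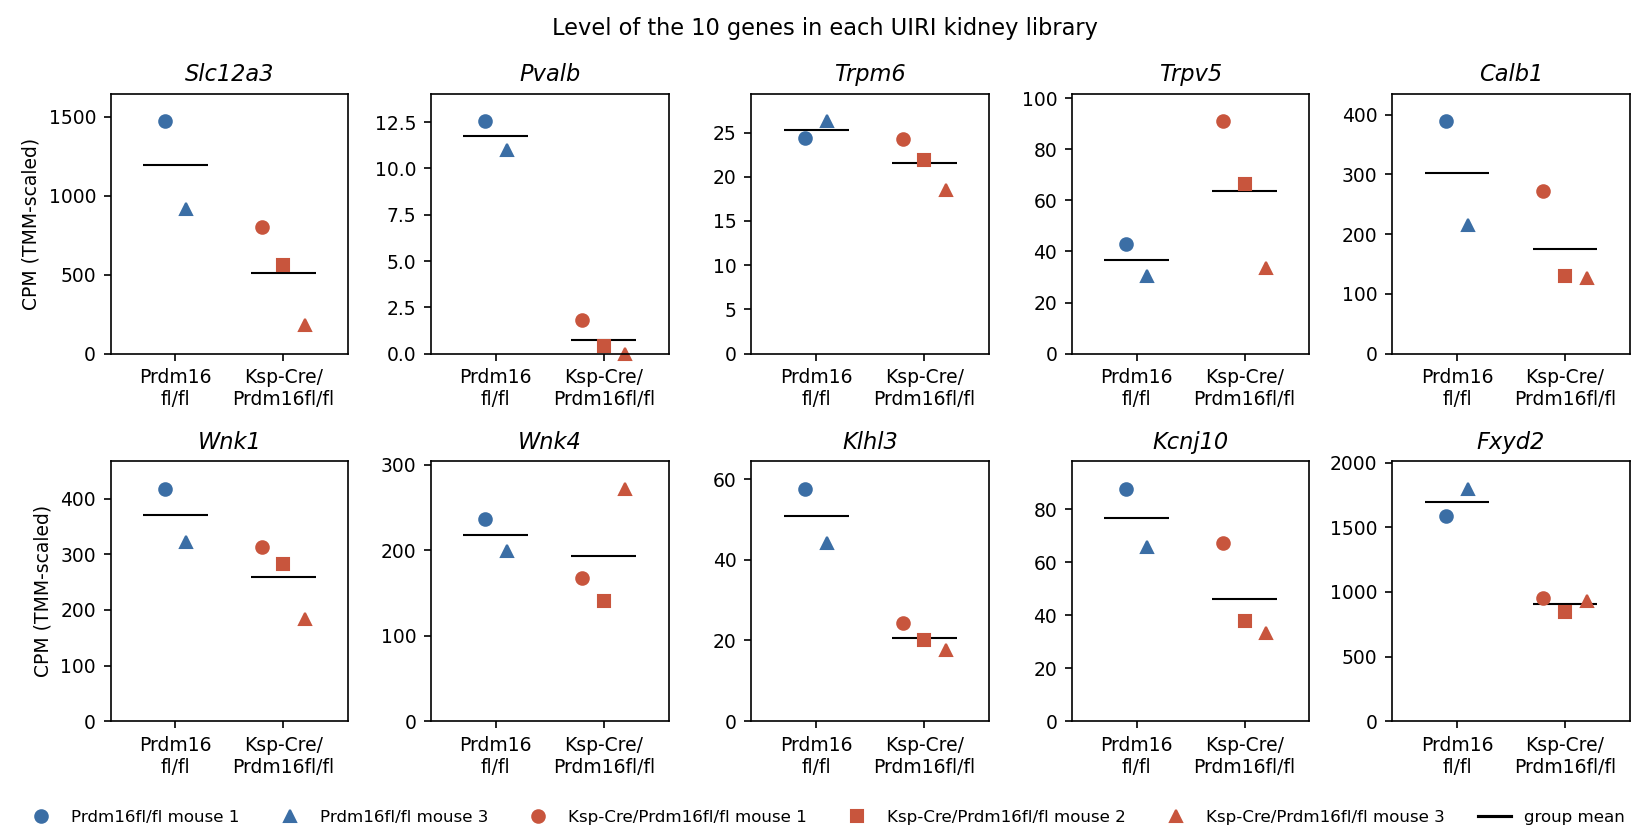
Level of each of the 10 genes in CPM (y axis, from 0, scaled by TMM) in 2 Prdm16fl/fl and 3 Ksp-Cre/Prdm16fl/fl UIRI kidneys, 1 point per library, with a bar at the group mean. Klhl3, Fxyd2 and Pvalb separate the groups by a clear gap, Slc12a3 steps down to 183 CPM in Ksp-Cre/Prdm16fl/fl mouse 3, and Wnk4 is highest in that same mouse at 272 CPM.

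Salt transport rests on Slc12a3, on chromosome 8 from 95055737 to 95092850 on the plus strand in the coordinates of the files, whose build is a mouse build that the sources used here do not name and that is not GRCm38. Slc12a3 was at 1472 and 919 CPM in the Prdm16fl/fl kidneys and at 801, 559 and 183 CPM in the Ksp-Cre/Prdm16fl/fl kidneys, from 2746 counts in the lowest library to 21830 in the highest. The groups did not overlap on this scale, but did in TPM, where knockout mouse 1 at 406 was above control mouse 3 at 361. The Ksp-Cre/Prdm16fl/fl mice themselves spanned 4.38-fold, at 67.0%, 46.7% and 15.3% of the Prdm16fl/fl mean. The mean was 1195 ± 391 CPM (SD, n = 2) against 514 ± 311 CPM (SD, n = 3), a log2 fold change of -1.22 (SE 0.57, adjusted p = 0.318). Leaving out Ksp-Cre/Prdm16fl/fl mouse 3 gave a log2 fold change of -0.81, and the adjusted p was 0.0488.

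Slc12a3 was also set against Slc12a1, which encodes the sodium-potassium-chloride cotransporter of the neighbouring thick ascending limb, within each library, where no scaling between libraries is needed. The log2 ratio of Slc12a3 to Slc12a1 was 1.44 and 0.22 in the Prdm16fl/fl kidneys and 0.85, 0.42 and -0.98 in the Ksp-Cre/Prdm16fl/fl kidneys. The groups overlapped, and only in Ksp-Cre/Prdm16fl/fl mouse 3 was Slc12a3 below Slc12a1. The difference of the mean log2 ratios was -0.73, from 0.83 ± 0.86 (SD, n = 2) to 0.10 ± 0.95 (SD, n = 3), with p = 0.6 in an exact two-sided permutation test and 0.9 after adjustment over the 3 ratios computed. Leaving out each mouse gave differences from -1.34 to -0.12: -0.12 without Prdm16fl/fl mouse 1, -1.34 without Prdm16fl/fl mouse 3 and -0.20 without Ksp-Cre/Prdm16fl/fl mouse 3. With 2 and 3 mice this test cannot give a p below 0.1.

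Pvalb, which encodes parvalbumin, a cytosolic calcium-binding protein of the early distal convoluted tubule, lies on chromosome 15 from 78075312 to 78090600 on the minus strand. It had 186 and 153 counts in the Prdm16fl/fl libraries and 32, 7 and 0 counts in the Ksp-Cre/Prdm16fl/fl libraries. In CPM this was 12.5 and 11.0 against 1.82, 0.41 and 0, where 3 counts, the limit that a count of 0 allows for counting error, correspond to 0.20 CPM in Ksp-Cre/Prdm16fl/fl mouse 3. Pvalb had the lowest fold change of the 10 genes, and its Prdm16fl/fl libraries were within 1.14-fold of each other. The mean was 11.8 ± 1.104 CPM against 0.74 ± 0.95 CPM, and the log2 fold change was -3.93 (SE 0.93, adjusted p = 0.106). Leaving out the mouse at 0, the log2 fold change was -3.37 with an adjusted p of 0.00176. Skeletal muscle is another well known source of parvalbumin. Of 8 skeletal muscle markers, 2 passed the filter, Acta1, the most abundant by mean TPM over all 5 libraries, and Atp2a1. In the Prdm16fl/fl mean Atp2a1 was the higher, at 1.75 against 1.36 TPM. Atp2a1 was at 2.97 and 2.51 CPM in the Prdm16fl/fl kidneys and at 1.02, 0.89 and 0.40 CPM in the Ksp-Cre/Prdm16fl/fl kidneys, with no overlap and in the same direction as Pvalb (log2 fold change -1.81, adjusted p = 0.105). Acta1 was at 1.21 and 0.72 against 1.42, 1.59 and 0.47 CPM, with overlap. Of the others, Myh4 had 0 counts in all 5 libraries, Ckm 0 in both controls and at most 1 elsewhere, Tnnt3 4 and 4 against 3, 3 and 2, Tnnc2 0 and 0 against 1, 2 and 2, Mylpf 3 and 3 against 5, 4 and 2, and Actn3 6 and 6 against 12, 4 and 6 counts. The 8 summed to 5.18 and 3.85 TPM against 5.51, 5.28 and 2.56 TPM. Their part in the level of Pvalb was not tested.

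Trpm6, the apical magnesium channel of the segment, lies on chromosome 19 from 18707566 to 18869885 on the plus strand. Its level was 24.4 and 26.3 CPM in the Prdm16fl/fl kidneys and 24.3, 21.9 and 18.5 CPM in the Ksp-Cre/Prdm16fl/fl kidneys. The knockout kidneys lay below both others by a narrow margin, but in TPM the values were 7.29 and 7.12 against 8.49, 7.65 and 5.75, with knockout mice 1 and 2 above both controls, so that its direction depends on the scaling. The log2 fold change was -0.23 (SE 0.16, adjusted p = 0.481) and did not pass the test with any mouse left out, with -0.13 (adjusted p = 0.495) without Ksp-Cre/Prdm16fl/fl mouse 3. A gene on the opposite strand, Gm41814, shares 12375 bases with the span of Trpm6, but had between 3 and 8 counts per library against 277 to 428 for Trpm6.

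Trpv5 and Calb1 act together in calcium uptake, the first as the apical channel and the second, calbindin-D28k, as the carrier of calcium across the cytosol. Trpv5, on chromosome 6 from 41628595 to 41658158 on the minus strand, was at 43.1 and 30.5 CPM in the Prdm16fl/fl kidneys and at 90.9, 66.5 and 33.6 CPM in the Ksp-Cre/Prdm16fl/fl kidneys. Ksp-Cre/Prdm16fl/fl mice 1 and 2 lay above both Prdm16fl/fl mice, and mouse 3 lay between them. Trpv5 was the only one of the 10 genes with a positive log2 fold change, 0.79 (SE 0.41, adjusted p = 0.359). With that mouse left out it was 1.1 (adjusted p = 0.00669), whereas leaving out knockout mouse 1 gave 0.45 (adjusted p = 0.576).

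Calb1, on chromosome 4 from 15881264 to 15906709 on the plus strand, was at 389 and 216 CPM in the Prdm16fl/fl kidneys and at 271, 129 and 126 CPM in the Ksp-Cre/Prdm16fl/fl kidneys. The groups overlapped, since Ksp-Cre/Prdm16fl/fl mouse 1 lay between the Prdm16fl/fl mice, which differed 1.80-fold from each other. The log2 fold change was -0.78 (SE 0.41, adjusted p = 0.364), and it ranged from -1.24 to -0.30 with each mouse left out, with -0.59 (adjusted p = 0.2703) without Ksp-Cre/Prdm16fl/fl mouse 3.

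The magnesium channel was also set against the calcium channel within each library. The log2 ratio of Trpm6 to Trpv5, in CPM, was -0.82 and -0.22 in the Prdm16fl/fl kidneys and -1.90, -1.60 and -0.87 in the Ksp-Cre/Prdm16fl/fl kidneys. All 3 knockout kidneys lay below both others, with Ksp-Cre/Prdm16fl/fl mouse 3 close to Prdm16fl/fl mouse 1. The difference of the means was -0.94, from -0.52 ± 0.43 (SD, n = 2) to -1.46 ± 0.53 (SD, n = 3), with p = 0.2 in the exact two-sided permutation test and 0.6 after adjustment over the 3 ratios. It kept its sign with each mouse left out, between -1.24 and -0.64, and was -1.23 without Ksp-Cre/Prdm16fl/fl mouse 3.

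**Figure D2:**
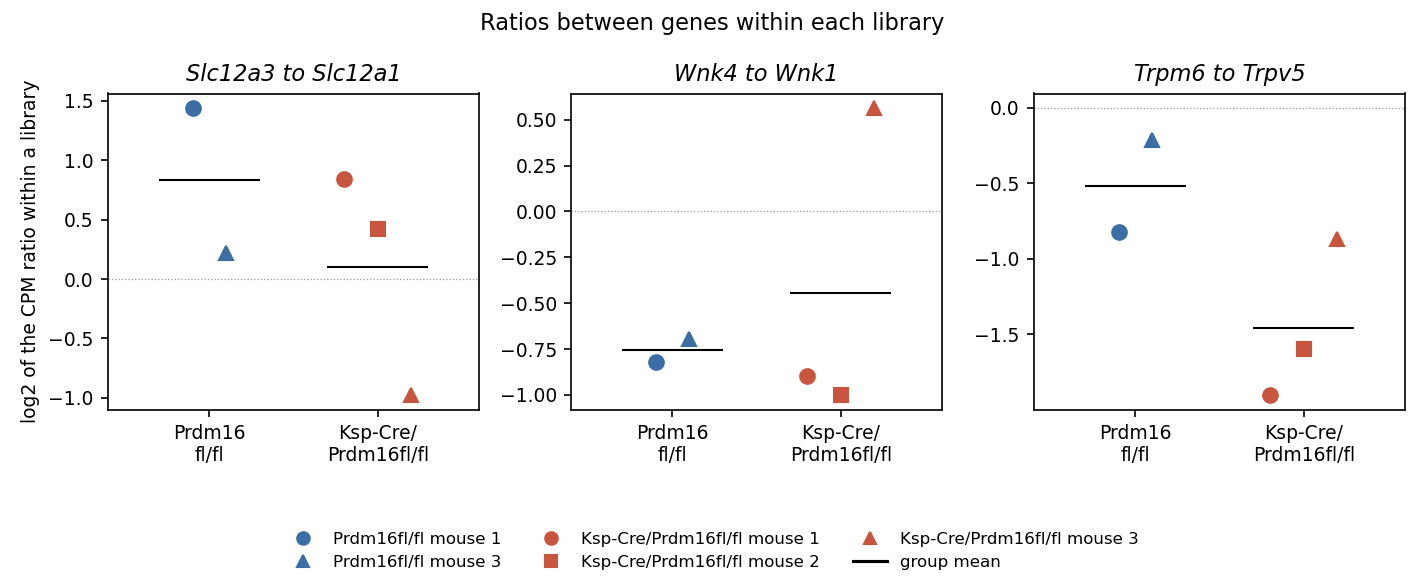
Log2 of the ratio of 2 genes' CPM within each library (y axis, a separate scale in each panel), for Slc12a3 to Slc12a1, Wnk4 to Wnk1 and Trpm6 to Trpv5, with 1 point per mouse and a bar at the group mean. Ksp-Cre/Prdm16fl/fl mouse 3 is lowest in the first panel at -0.98 and highest in the second at 0.56, and in the third all 3 Ksp-Cre/Prdm16fl/fl mice lie below both Prdm16fl/fl mice.

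The WNK kinases sense chloride and potassium and set the activity of NCC. Wnk1, on chromosome 6 from 119900930 to 120015659 on the minus strand, was at 418 and 322 CPM in the Prdm16fl/fl kidneys and at 312, 282 and 184 CPM in the Ksp-Cre/Prdm16fl/fl kidneys. The groups did not overlap on this scale, but did in TPM, where knockout mice 1 and 2 at 68.4 and 61.7 were above control mouse 3 at 54.7. The log2 fold change was -0.51 (SE 0.25, adjusted p = 0.339), and -0.31 (adjusted p = 0.163) without Ksp-Cre/Prdm16fl/fl mouse 3. The kidney makes most of its Wnk1 RNA in this segment from an internal promoter, as a short form without the kinase domain. The gene count does not separate that form from the full-length kinase.

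Wnk4, on chromosome 11 from 101151363 to 101168235 on the plus strand, was at 237 and 199 CPM in the Prdm16fl/fl kidneys and at 168, 141 and 272 CPM in the Ksp-Cre/Prdm16fl/fl kidneys. On this scale mice 1 and 2 of the knockout lay below both Prdm16fl/fl mice. Mouse 3, the mouse with the lowest Slc12a3, had the highest Wnk4 of all 5 libraries. In TPM knockout mouse 1 at 105 was above control mouse 3 at 96.8, and the knockout mean was the higher, at 115 against 112. The log2 fold change was -0.17 (SE 0.29, adjusted p = 0.786). Without Ksp-Cre/Prdm16fl/fl mouse 3 it was -0.49, with an adjusted p of 0.0340, and without Ksp-Cre/Prdm16fl/fl mouse 2 its sign turned, to 0.013 (adjusted p = 0.985).

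The log2 ratio of Wnk4 to Wnk1, in CPM, was -0.82 and -0.69 in the Prdm16fl/fl kidneys and -0.90, -1.001 and 0.56 in the Ksp-Cre/Prdm16fl/fl kidneys. Taken per length, Wnk4 was 1.62 and 1.77 times Wnk1 in TPM in the Prdm16fl/fl kidneys, 1.54 and 1.43 times in knockout mice 1 and 2, and 4.23 times in mouse 3. The difference of the mean log2 ratios was 0.31, from -0.76 ± 0.089 (SD, n = 2) to -0.44 ± 0.88 (SD, n = 3), with p = 1.0 in the exact two-sided permutation test, before and after adjustment. Without Ksp-Cre/Prdm16fl/fl mouse 3 it was -0.19, so that its sign rests on that mouse.

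Klhl3 was the member that fell. It encodes the substrate adaptor that brings WNK kinases to the cullin-3 ligase, and its mutations cause familial hyperkalemic hypertension. It lies on chromosome 13 from 58148040 to 58271288 on the minus strand. The level was 57.6 and 44.1 CPM in the Prdm16fl/fl kidneys and 24.3, 20.02 and 17.5 CPM in the Ksp-Cre/Prdm16fl/fl kidneys, from 263 to 854 counts per library. The groups were far apart, with the knockout kidneys at 47.8%, 39.4% and 34.5% of the Prdm16fl/fl mean and within 1.39-fold of each other. The mean was 50.9 ± 9.51 CPM (SD, n = 2) against 20.6 ± 3.42 CPM (SD, n = 3), a 2.46-fold lower level, with a log2 fold change of -1.30 (SE 0.19, adjusted p = 0.0467). Over 13 other fits the log2 fold change stayed between -1.48 and -0.96, and the adjusted p ranged from 1.06e-05 to 0.496 and was under 0.05 in 4 of the 13. Without Ksp-Cre/Prdm16fl/fl mouse 3 the log2 fold change was -1.195 and the adjusted p 0.00222, and without any of the other mice the adjusted p was between 0.117 and 0.496. Opposite-strand genes that share its span, Gm33389 and Gm52040, had at most 2 counts in a library.

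Kcnj10 and Fxyd2 act at the basolateral side. Kcnj10, on chromosome 1 from 172168777 to 172201652 on the plus strand, encodes the potassium channel Kir4.1, which sets the membrane potential and links plasma potassium to the WNK kinases. It was at 87.6 and 65.7 CPM in the Prdm16fl/fl kidneys and at 67.0, 37.9 and 33.2 CPM in the Ksp-Cre/Prdm16fl/fl kidneys. Ksp-Cre/Prdm16fl/fl mouse 1 lay just above Prdm16fl/fl mouse 3, and the other knockout mice were well below both. The log2 fold change was -0.74 (SE 0.32, adjusted p = 0.286), and -0.54 (adjusted p = 0.158) without Ksp-Cre/Prdm16fl/fl mouse 3. With each mouse left out it ranged from -1.11 to -0.52.

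Fxyd2, on chromosome 9 from 45311007 to 45321576 on the plus strand, encodes the gamma subunit of the sodium pump, and its mutation causes renal magnesium loss. It was at 1590 and 1798 CPM in the Prdm16fl/fl kidneys and at 951, 844 and 928 CPM in the Ksp-Cre/Prdm16fl/fl kidneys. The knockout kidneys differed 1.13-fold among themselves, and Ksp-Cre/Prdm16fl/fl mouse 3 did not stand apart from the other 2. The mean was 1694 ± 147 CPM (SD, n = 2) against 907 ± 56.3 CPM (SD, n = 3), a log2 fold change of -0.90 (SE 0.15), and the adjusted p of 0.0548 missed the threshold. The adjusted p was 1.46e-06 with DESeq2, 0.0289 without the filter on low counts and 0.00294 without Ksp-Cre/Prdm16fl/fl mouse 3, at a log2 fold change of -0.91. It was under 0.05 in these 3 of 13 other fits, and without any of the other mice it was between 0.156 and 0.525. Fxyd2 is also expressed in other tubule segments, among them the proximal tubule and the thick ascending limb.

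**Figure D3:**
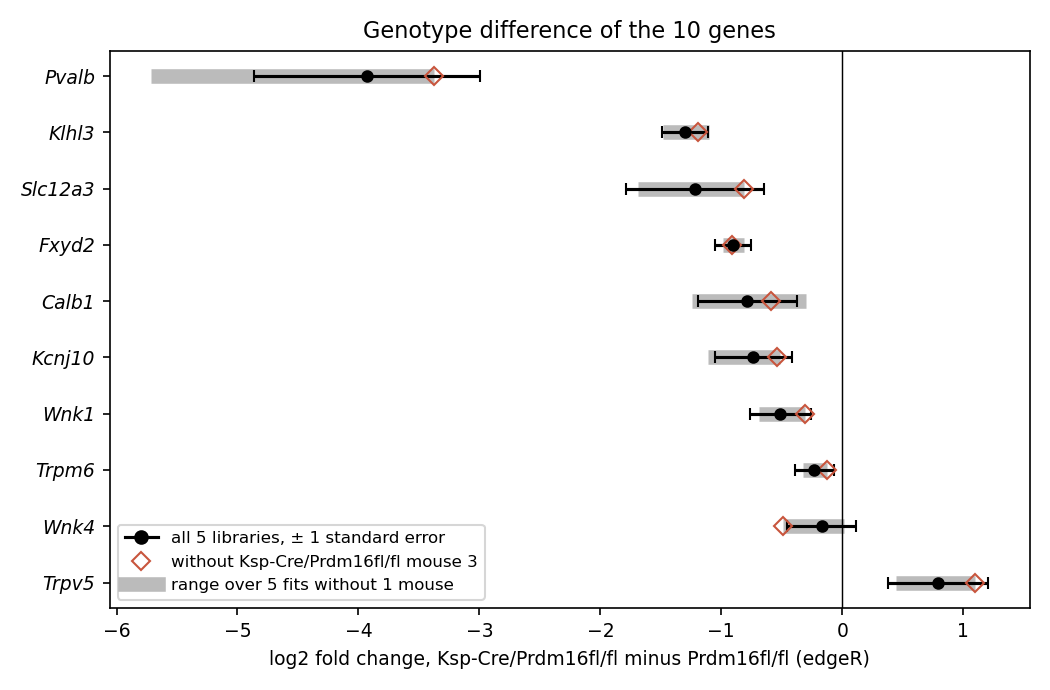
Log2 fold change (x axis, Ksp-Cre/Prdm16fl/fl minus Prdm16fl/fl, from edgeR) of the 10 genes with 1 standard error (black), without Ksp-Cre/Prdm16fl/fl mouse 3 (open diamonds), and the range over the 5 fits that leave out 1 mouse each (grey). Fxyd2 has the range from -0.99 to -0.81 and Klhl3 that from -1.48 to -1.1, Pvalb ranges from -5.71 to -3.37, and Trpv5 alone lies to the right of 0.

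Levels between genes were compared per length, in TPM. In the Prdm16fl/fl kidneys the order ran from Fxyd2 at 2518 ± 44.8 TPM (SD, n = 2) through Slc12a3 at 500.0 ± 196, Calb1 at 234 ± 109, Wnk4 at 112 ± 21.2 and Wnk1 at 66.5 ± 16.6 TPM. Pvalb at 24.8 ± 4.02, Kcnj10 at 24.0 ± 6.45, Trpv5 at 18.9 ± 5.84 and Klhl3 at 15.1 ± 3.84 TPM followed, with ranges that overlapped from each gene to the next, and Trpm6 was last at 7.21 ± 0.12 TPM. In the Ksp-Cre/Prdm16fl/fl kidneys Fxyd2 was again first, at 1596 ± 123 TPM (SD, n = 3), before Slc12a3 at 257 ± 163, Calb1 at 160 ± 81.7, Wnk4 at 115 ± 32.9 and Wnk1 at 55.3 ± 17.2 TPM. Trpv5 came next at 39.1 ± 19.2 TPM, then Kcnj10 at 17.1 ± 7.49, Trpm6 at 7.29 ± 1.40, Klhl3 at 7.23 ± 1.57 and Pvalb at 1.91 ± 2.45 TPM. Ranges overlapped there between Slc12a3 and Calb1, Calb1 and Wnk4, Wnk1 and Trpv5, Trpv5 and Kcnj10, and Trpm6 and Klhl3. Pvalb was thus last in the Ksp-Cre/Prdm16fl/fl order, whereas in the Prdm16fl/fl order its range overlapped that of Kcnj10. Its fold change was not called.

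Of 16 genes of the WNK cascade, 8 were lower and 8 higher, with a median log2 fold change of -0.03, and by mean TPM 6 were lower and 10 higher, Wnk4 and Cul3 among them. Klhl3 was the only gene called. Neither kinase that passes the signal on to NCC was called. Stk39, which encodes SPAK, was at 47.7 and 44.1 against 51.4, 44.6 and 46.4 CPM (log2 fold change 0.05, adjusted p = 0.855). Oxsr1, which encodes OSR1, was at 72.3 and 63.0 against 85.3, 88.1 and 84.1 CPM, with the knockout above both others and a log2 fold change of 0.34 that did not pass (adjusted p = 0.191). Cul3, the scaffold that Klhl3 works with, and Rbx1, the most abundant gene of the list by mean TPM over all 5 libraries, had log2 fold changes of -0.09 (adjusted p = 0.725) and -0.34 (adjusted p = 0.244).

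Ppp1r1a, protein phosphatase inhibitor 1, which is known to favour NCC phosphorylation, was the gene of the cascade with the fold change farthest from 0, and in the Prdm16fl/fl kidneys it was above Rbx1 in TPM. It was at 122 and 146 CPM in the Prdm16fl/fl kidneys and at 57.3, 36.8 and 20.6 CPM in the Ksp-Cre/Prdm16fl/fl kidneys. The groups did not overlap, and the log2 fold change was -1.81 (SE 0.39, adjusted p = 0.0831). No gene of the aldosterone response on the list was called. Nr3c2, the mineralocorticoid receptor, had a log2 fold change of -0.51 (adjusted p = 0.346), the kinase gene Sgk1 one of 0.35 (adjusted p = 0.533), with 198 CPM in Ksp-Cre/Prdm16fl/fl mouse 3 against 107 to 118 CPM elsewhere, and Nedd4l, a ubiquitin ligase downstream of it, one of 0.05 (adjusted p = 0.905).

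Among the genes of magnesium handling, 11 of 12 were tested (Kcna1 was not), 8 lower and 3 higher (median log2 fold change -0.33), or 7 and 4 by mean TPM. Fxyd2 was the most abundant per length. Pcbd1, a cofactor of the HNF1 transcription factors whose loss causes magnesium wasting, fell. It was at 197 and 240 CPM in the Prdm16fl/fl kidneys and at 100.4, 97.1 and 78.1 CPM in the Ksp-Cre/Prdm16fl/fl kidneys, with no overlap and a log2 fold change of -1.25 (SE 0.16, adjusted p = 0.0412). Egf, the precursor of epidermal growth factor, which is made in the distal tubule and is known to stimulate TRPM6, was at 512 and 498 CPM against 65.6, 41.6 and 9.93 CPM. The Prdm16fl/fl mice were almost alike and the knockout mice 12.9-fold lower by the fit, with a log2 fold change of -3.69 (SE 0.68), and the adjusted p was 0.0646. Cnnm2, which encodes a basolateral membrane protein needed for magnesium balance, had a log2 fold change of -0.52 (adjusted p = 0.308).

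Of the 12 genes of calcium reabsorption, 8 were lower and 4 higher, with a median log2 fold change of -0.45, and 7 and 5 by mean TPM. Klk1, tissue kallikrein, a protease of the connecting tubule and the most abundant of the list per length, was the only gene called. It was at 2134 and 2235 CPM in the Prdm16fl/fl kidneys and at 1001, 683 and 713 CPM in the Ksp-Cre/Prdm16fl/fl kidneys, a log2 fold change of -1.45 (SE 0.21, adjusted p = 0.0465). S100g, calbindin-D9k, had no overlap between the groups either, at 611 and 500.3 against 245, 130.1 and 122 CPM (log2 fold change -1.75, adjusted p = 0.0658). The second apical calcium channel, Trpv6, had a log2 fold change of 0.71 (adjusted p = 0.401) and, like Trpv5, was lowest in Prdm16fl/fl mouse 3, at 2.58 CPM. The basolateral exchanger Slc8a1 ranged from 60.8 CPM in Ksp-Cre/Prdm16fl/fl mouse 3 to 214 CPM in mouse 1, with a log2 fold change of -0.22 (adjusted p = 0.845).

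All 9 basolateral channel and pump genes were lower (median log2 fold change -0.61), 7 of them also by mean TPM, and 0 were called by edgeR. Bsnd, which encodes barttin, had a log2 fold change of -0.80 (adjusted p = 0.329), and Kcnj16, the partner of Kcnj10, one of -0.36 (adjusted p = 0.431). Atp1b1, the beta subunit of the sodium pump, had a log2 fold change of -0.51 (adjusted p = 0.195).

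**Figure D4:**
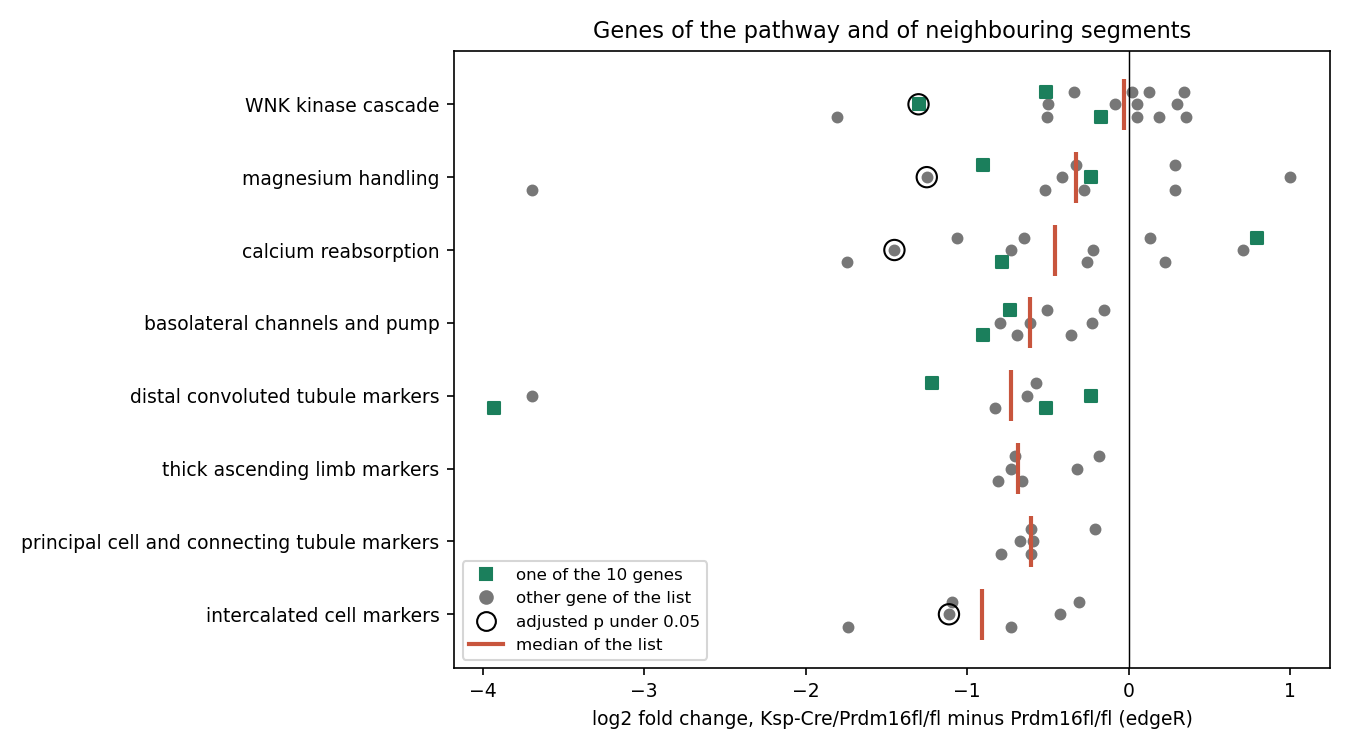
Log2 fold change (x axis, Ksp-Cre/Prdm16fl/fl minus Prdm16fl/fl, from edgeR) of every tested gene in 4 transport lists and 4 marker lists of the distal nephron, with the 10 genes as squares, other genes as dots, called genes circled and the median of each list as a bar. The WNK cascade centres on -0.03, the distal convoluted tubule markers on -0.73, and Pvalb and Egf lie farthest to the left.

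Markers of the segment and of its neighbours were read in the same libraries. All 8 distal convoluted tubule markers, 4 of them among the 10 genes, were lower (median log2 fold change -0.73), all but Trpm6 also by mean TPM, and 0 were called by edgeR. Their summed level was 1363 and 889 TPM in the Prdm16fl/fl kidneys and 834, 625 and 252 TPM in the Ksp-Cre/Prdm16fl/fl kidneys, with Slc12a3 the most abundant. Emx1, a transcription factor of the segment, was at 41.5 and 41.4 against 27.5, 23.0 and 19.3 CPM, with no overlap (log2 fold change -0.83, adjusted p = 0.0772). Sall3 and Tmem52b had log2 fold changes of -0.63 (adjusted p = 0.389) and -0.58 (adjusted p = 0.506).

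Markers of other tubule segments had negative medians too. All 6 thick ascending limb markers had negative log2 fold changes, with a median of -0.69 and sums of 2405 and 2915 against 2633, 2342 and 1073 TPM, and Umod, their most abundant gene, was 799 CPM in Ksp-Cre/Prdm16fl/fl mouse 3 against 1776 CPM or more elsewhere. For the 6 principal cell and connecting tubule markers the median was -0.60 and the sums 843 and 645 against 798, 476 and 514 TPM, with Hsd11b2 the most abundant. The 6 intercalated cell markers had a median of -0.91 and sums of 344 and 263 against 242, 183 and 181 TPM, and Slc4a9, an anion exchanger, fell (log2 fold change -1.11, SE 0.15, adjusted p = 0.0412). The 8 proximal tubule markers had a median of -1.31 and sums of 6236 and 6177 against 3113, 3698 and 3310 TPM, with Slc27a2 the most abundant. Aqp2, the water channel of principal cells, had a log2 fold change of -0.21 (adjusted p = 0.809), and Scnn1g, a subunit of the sodium channel ENaC, one of -0.60 (adjusted p = 0.380). The marker genes with log2 fold changes farthest from 0 were Cldn10 for the thick ascending limb (-0.81), Hsd11b2 for principal cells (-0.79), Slc4a1 for intercalated cells (-1.74) and Slc7a13 for the proximal tubule (-3.37), and edgeR called none of these (adjusted p from 0.140 to 0.331). By mean TPM, Cldn16 and Aqp2 were the only ones of these markers that were higher.

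In Ksp-Cre/Prdm16fl/fl mouse 3, the distal convoluted tubule sum was 22.4% and the thick ascending limb sum 40.3% of the Prdm16fl/fl mean, against 55.5% or more and 88.0% or more in the other Ksp-Cre/Prdm16fl/fl mice. Without their most abundant genes, Slc12a3 and Umod, these sums were 27.0% and 51.75% in mouse 3. In the other Ksp-Cre/Prdm16fl/fl mice they were then 54.6% or more and 79.8% or more. The proximal tubule sum was 50.2%, 59.6% and 53.3% in knockout mice 1, 2 and 3 with Slc27a2, and 40.3%, 43.2% and 19.4% without this gene, and 6 of the 8 proximal tubule markers were lowest in mouse 3 among the knockout mice. The 5 pan-tubular markers, led by Cdh16, summed to 1111 and 1013 against 1311, 1292 and 954 TPM. Without Cdh16 the sums were 434 and 421 against 610, 574 and 540 TPM, so that all 3 knockout mice lay above both controls. All 8 tubular injury markers, led by Spp1, had positive log2 fold changes with a median of 1.14 and 0 called, and their sums were 259.6%, 264% and 281% of the Prdm16fl/fl mean. The part of these cell type and injury markers in the levels of the 10 genes was not tested.

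Among non-epithelial markers, edgeR called 0 genes of the leukocyte, fibroblast, endothelial and erythroid lists, and the leukocyte and endothelial sums overlapped between the groups. Leukocyte markers, led by Cd68, summed to 109.5 and 117 TPM in the Prdm16fl/fl kidneys and to 161, 159 and 86.7 TPM in the Ksp-Cre/Prdm16fl/fl kidneys. For fibroblast markers, led by Col1a1 by mean TPM over all 5 libraries, the sums were 93.5 and 155 against 252, 246 and 179.9 TPM. In the Prdm16fl/fl mean Dcn was above Col1a1, at 51.5 against 44.5 TPM. Endothelial markers, led by Emcn by mean TPM, summed to 148 and 144 against 163, 136 and 187 TPM. Erythroid markers, led by Hbb-bs, summed to 24.1 and 34.0 against 657, 649.7 and 155 TPM, all 5 with positive log2 fold changes. The log2 fold changes farthest from 0 in the remaining lists were those of Lcn2 (1.89), Epcam (0.36), Atp2a1 (-1.81), Cd3e (-0.35), Col1a1 (0.89), Flt1 (0.74) and Hba-a2 (5.35), none of them called by edgeR. Their part in the results was not tested either.

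**Figure D5:**
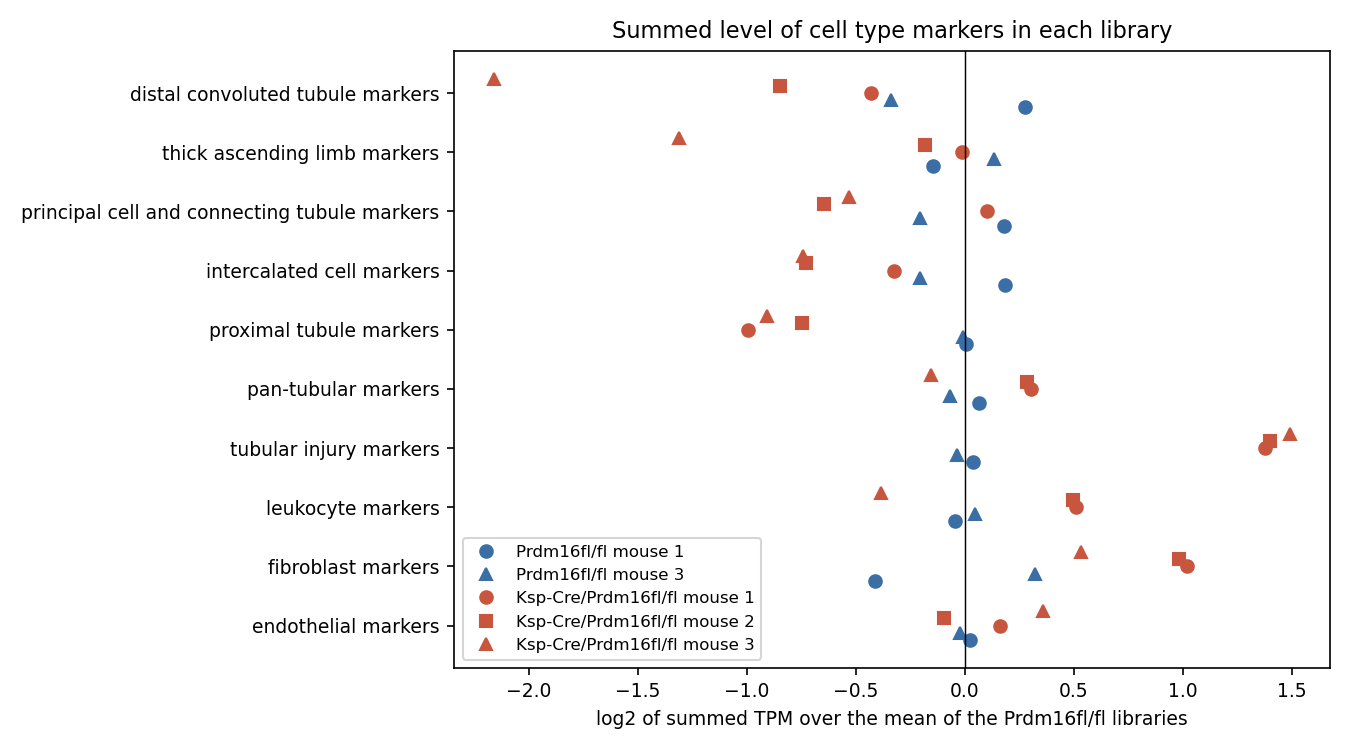
Log2 of the summed TPM of each cell type's markers over the mean of the Prdm16fl/fl libraries (x axis), 1 point per library. The distal convoluted tubule and thick ascending limb rows place Ksp-Cre/Prdm16fl/fl mouse 3 far to the left, at 22.4% and 40.3% of the Prdm16fl/fl mean, and the tubular injury row places all 3 Ksp-Cre/Prdm16fl/fl mice to the right.

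The genes whose levels followed Slc12a3 and Wnk1 most closely over the 5 libraries were found by the root mean square distance of centred log2 CPM, among 13994 genes. Nearest to Slc12a3 were Ly6g6g at a distance of 0.11, Oxgr1 at 0.15, Atp2b2 at 0.15, Abca13 at 0.15 and Vstm2a at 0.16. Abca13, for example, was at 130.8 and 93.1 CPM in the Prdm16fl/fl kidneys and at 59.8, 43.6 and 15.5 CPM in the Ksp-Cre/Prdm16fl/fl kidneys, in the same order of mice as Slc12a3. Nearest to Wnk1 were Sntb1 at 0.035, Pigbos1 at 0.042, Fam229b at 0.044, Nr3c2 at 0.047 and BB218582 at 0.061. Nr3c2, from the WNK cascade list, was at 28.4 and 23.8 against 22.8, 19.4 and 12.8 CPM. With 5 libraries such likeness is a description only.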

How the data were processed

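RNA-seq of 5 mouse kidneys, 2 Prdm16fl/fl and 3 Ksp-Cre/Prdm16fl/fl, was grouped by the genotype in the labels. The authors deposited raw counts per gene for each mouse, and beside them TPM and FPKM made from the counts. The submitters' processing notes name CASAVA, featureCounts 2.0.1, DESeq2 1.16.1 and the human build hg38, with no role. The aligner, annotation and use of strand are not given in the sources used here, so overlapping genes are uncertain. Lines of 5 genes broken in the files were rejoined. In edgeR 4.0.16 under R 4.3.3, filterByExpr chose the genes, TMM scaled the libraries, and a quasi-likelihood fit with genotype alone gave the p-values. The named genes are the 10 members, Prdm16 and Cdh16, and from 16 gene lists the called, the most abundant, the most changed and a set of always named genes, as well as the 5 genes most like Slc12a3 and Wnk1 (mean log2 CPM 1 or more). Some genes that the rule names are not reported here. Any other gene was named after its values were seen. The members and lists were chosen with earlier results of these data known. Alternatives were DESeq2 1.42.0, other filters and scalings, limma 3.58.1 on log2 FPKM with a pseudocount of 1 or 0.1 (genes at FPKM 1 or more in 2 libraries), a log2 fold change of at least 1 as a further threshold, leaving out each mouse, and the mouse number as a block. Intervals and limits on counts cover counting error only. Promoters are from RefSeq. Python 3.11.15, pandas 2.3.3, numpy 2.4.6 and matplotlib 3.10.9 served for tables and figures.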

Additional observations from a re-analysis of the deposited data

How the results depend on the processing

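With groups of 2 and 3 mice every call is uncertain, and the counts of calls moved more than the fold changes did. All genes called lower numbered 143 with all mice and edgeR, 863 with DESeq2, 408 without the filter on low counts, 37 when scaled by library size, 39 and 10 by limma on log2(FPKM + 1) and log2(FPKM + 0.1), and 0 with the mouse number as a block. Genes called higher numbered 17, and 303, 63 and 3 with DESeq2, without the filter and with limma on log2(FPKM + 0.1), and 0 with the block. With each mouse left out, the lower genes ranged from 0 to 1787 and the higher genes from 0 to 1266, and 1787 and 1266 were those without Ksp-Cre/Prdm16fl/fl mouse 3. Of the 10 genes, 1 was called lower, 2 with DESeq2 and 2 without the filter, 0 with library size or upper-quartile scaling, with limma at either pseudocount and with the block, and 0 to 5 with each mouse left out. The number called higher was 0, and 0 to 1 with each mouse left out. Where 0 of the 10 were called lower, 3 had an unadjusted p under 0.05 with library size scaling (21.3% of all genes), with upper-quartile scaling (18.8%) and with limma (22.9% and 22.4%), and 7 with the block (12.6%). It was 6 without knockout mouse 1 (15.5%) and 3 without knockout mouse 2 (14.2%). Fits that rest on 1 control mouse are left out of these counts. The median over all genes, 0.04 on the log2 scale, was 0.15 when libraries were scaled by size.

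Chosen after seeing the data, the values in TPM and in counts over library totals were read too. The number of the 10 genes with all knockout libraries below both controls was 6 with TMM and 3 on each of these scales, and the median log2 ratio of group means over all genes was 0.28 in TPM and 0.15 in counts over library totals. Over 129 fold changes of the 10 genes under the alternatives, 112 kept their direction and their side of the threshold, 9 lost the call, 7 gained it and 1 reversed. That 1 was Wnk4, whose log2 fold change of -0.17 ranged from -0.49 to 0.013 with each mouse left out. The log2 ratio of Wnk4 to Wnk1, 0.31, ranged from -0.19 to 0.59, and it was -0.19 without Ksp-Cre/Prdm16fl/fl mouse 3. A gene that stayed uncalled counts among the 112. Of the 10 genes only Klhl3 had a call to lose, so that all 9 losses were its own, and it was called in 4 of 13 other fits. Besides fits with a mouse left out, Klhl3 lost its call with library size scaling (-1.19, adjusted p = 0.0816), upper-quartile scaling (-1.28, adjusted p = 0.0551), limma (-0.96, adjusted p = 0.0844, and -1.16, adjusted p = 0.109) and the block (-1.29, adjusted p = 0.1497). The cause of these moves was not tested. Whether the mouse numbers pair the mice cannot be told from these libraries. The correlation of deviations between same-numbered mice was -0.0003 for mice 1 and -0.022 for mice 3. The deviations of the control mice are mirror images of each other, so these values cannot show pairing or its absence. The block left 0 genes called by edgeR, with 2061 at an unadjusted p under 0.05. It cannot decide the question either, as not every knockout mouse had a control of its number. Pvalb could not be tested where 10 counts in every library were required.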
